A study of Mus musculus with 9 samples.

Results

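The Slc25 genes encode the mitochondrial solute carriers, and their transcripts were followed in spermatogonia from vitamin A-sufficient and vitamin A-deficient (VAD) mice. Members were all probe sets of the array whose platform annotation gives a single gene symbol made of Slc25a and a number, which is 93 probe sets of 44 genes among 45101 probe sets, of which 34958 have a single symbol. The 9 arrays form 3 groups of 3. Controls were adult Balb/C mice on a normal diet, and the deficient groups were adult Balb/C mice that had received a VAD diet for 18 or 25 weeks. Each preparation combined the testes of 2 mice, and the released cells were plated overnight before the germ cells in suspension were sedimented through a BSA gradient, with a stated spermatogonial purity above 90%. Biotinylated cRNA came from 100 ng of RNA by 2 rounds of amplification. The age of the controls, and whether each array is a separate preparation, are not stated, so p-values measure only the spread between these arrays, which may be technical.

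Carriers of this family sit mostly in the inner mitochondrial membrane and exchange nucleotides, phosphate, carboxylates, amino acids and cofactors between the matrix and the cytosol. ADP/ATP exchange is served in somatic cells by Slc25a4 and the X-linked Slc25a5, while Slc25a31 is the ADP/ATP carrier of the male germ line and is needed for meiosis in mice. Spermatogonia need retinoic acid, which cells make from vitamin A, in order to differentiate and enter meiosis.

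The results turn on the 3 ADP/ATP carriers, so the sequences around or just upstream of their start sites are shown for comparison. They come from RefSeq (GRCm38.p6), are written 5′ to 3′ on the strand of the gene, and have the letters TCCCGC in capitals. That hexamer is known from promoters of meiosis genes bound by the repressor E2F6. The Slc25a31 window is chr3:40708721-40708900 on the plus strand and holds 150 bases before the start site and 30 after it. The Slc25a5 window is chrX:36795447-36795596 on the plus strand, and the Slc25a4 window is chr8:46211063-46211212 on the minus strand, each with the 150 bases before the start site.
Slc25a31: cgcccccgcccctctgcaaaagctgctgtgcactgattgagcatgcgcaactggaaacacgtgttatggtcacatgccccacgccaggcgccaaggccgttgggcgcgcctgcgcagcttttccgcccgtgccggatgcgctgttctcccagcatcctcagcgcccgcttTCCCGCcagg
Slc25a5: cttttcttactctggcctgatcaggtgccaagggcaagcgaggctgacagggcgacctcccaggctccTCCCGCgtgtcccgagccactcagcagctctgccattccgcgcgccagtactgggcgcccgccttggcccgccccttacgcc
Slc25a4: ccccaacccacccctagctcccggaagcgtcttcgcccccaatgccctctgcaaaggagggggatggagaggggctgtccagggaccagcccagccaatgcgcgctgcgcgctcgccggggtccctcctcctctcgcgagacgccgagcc
TCCCGC lies at +21 to +26 in the Slc25a31 window and at -82 to -77 in the Slc25a5 window, counted from the start site, and the Slc25a4 window has no match. The windows hold 17, 12 and 13 CpG dinucleotides in Slc25a31, Slc25a5 and Slc25a4. In the RefSeq windows of 250 bases before to 50 after each start, searched on both strands, TCCCGC occurs in 6562 of 32851 windows (20.0%) and in 11 of the 43 windows (25.6%) of the 34 Slc25 genes that could be matched. The nuclear receptor hexamer AGGTCA occurs in 16.3% of all windows and in 4 of the 43 Slc25 windows (9.3%), those of Slc25a34, Slc25a39, Slc25a45 and Slc25a47. The direct repeats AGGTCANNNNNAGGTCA and AGGTCANNAGGTCA, forms that retinoic acid receptors are known to bind, each occur in 3 of the 32851 windows (0.00913%) and in none of the 43. These letter matches are descriptions of the windows only.

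Signals are given as normalized log2 values after quantile normalization, and differences are log2 differences on that scale. The third control array and the third 25-week array were dim, with trimmed mean signals of 23.0 and 23.3 against 55.6 to 186 in the other 7 arrays. Their profiles correlated with each other at r = 0.889 and with the other arrays at 0.776 to 0.809, whereas the other 7 correlated at 0.935 to 0.981 among themselves. No 18-week array belonged to this pair, so the tests held the pair as a block, and 25-week differences are also given within and outside it. The block was chosen with earlier results of these data known. The 25-week arrays 1 and 2 were the brightest, and their poly-A spike probe sets had median log2 values of 6.71 and 7.21 against 2.83 to 3.19 elsewhere. No control array shares that feature, so outside the dim pair it cannot be told apart from 25 weeks of deficiency.

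Markers of the labelled cell type were detected in part. All 6 markers of differentiating spermatogonia and 4 of the 7 undifferentiated markers on the array passed the filter on low signals, and Ret, Sall4 and Lin28a did not. All 8 spermatocyte and all 8 spermatid markers passed it too. Normalized signals summed over spermatocyte markers were 18990 to 25507 in controls, 25094 to 26666 at 18 weeks and 20428 to 23835 at 25 weeks. Those of the spermatid markers were 6344 to 14853, 6730 to 11585 and 4417 to 14306 in the same order. Both sums exceed those of the spermatogonial markers below, although sums over different probes do not measure cell numbers. The summed normalized signal of the undifferentiated markers ran from 317 to 362 in controls, from 518 to 634 at 18 weeks and from 629 to 733 at 25 weeks. Among them Id4 alone was called, higher at both times. The summed differentiating markers were 875 to 1756 in controls, 1239 to 1290 at 18 weeks and 614 to 847 at 25 weeks. Of these, 0 were called at 18 weeks, and at 25 weeks Kit was called higher and Dmrtb1 lower. Dmrtb1 was the brightest of the 6 in every array and so weighs most in that sum. The median log2 difference of the 6 was 0.32 at 18 weeks and 0.43 at 25 weeks, where only Dmrtb1 (-1.19) and Stra8 (-0.14) were negative. Of 11 Sertoli cell markers that passed, 6 were called higher at 18 weeks and 8 at 25 weeks (0 and 0 without the block described above), and their summed normalized signal ran from 262 to 406 in controls, from 717 to 2226 at 18 weeks and from 879 to 2054 at 25 weeks. The summed Leydig markers ran from 68.0 to 157, from 150 to 573 and from 306 to 341, and the summed macrophage markers from 124 to 276, from 143 to 195 and from 216 to 328, in the same order. At 18 weeks 0 of 5 kept markers of either list were called, and at 25 weeks 1 Leydig marker (Cyp17a1) and 4 macrophage markers (Csf1r, Lyz2, C1qb and Mrc1) were called higher, although the macrophage sums overlapped. The remaining kept macrophage marker, Adgre1, gave -0.32 at 25 weeks (limma, adjusted p = 0.335). The Sertoli marker Gata4 gave -0.38 at 18 weeks and -0.98 at 25 weeks without passing (limma, adjusted p = 0.64 and 0.0766). Of all named genes, 1.51% were called at 18 weeks and 16.6% at 25 weeks. Cd68 and C1qa were below the filter. The Sertoli markers Sox9 and Amh were below the filter. In these bulk samples, fewer cells of a type and less RNA per cell cannot be told apart.

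Of the 93 Slc25 probe sets, 68 passed the filter and represent 39 genes. Slc25a13, Slc25a15, Slc25a23, Slc25a37 and Slc25a48 had no probe set above it, and the 8 probe sets of these genes stayed between 1.86 and 4.32. At 18 weeks, 1 of the 68 probe sets was called, a rise, against 1.47% of all 27022 kept probe sets. At 25 weeks, 13 of 68 (19.1%) were called, against 14.9% of all probe sets. Among these, 8 were higher (11.8%, against 8.54% of all) and 5 lower (7.35%, against 6.32%). The median log2 difference at 25 weeks was 0.04 over the Slc25 probe sets and -0.01 over all. Between 25 and 18 weeks the limma test called none of the Slc25 probe sets and 0.0% of all 27022, and 7 of the 68 had an unadjusted p under 0.05, against 11.5% of all.

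These counts depend on the block. Without it, limma called 0 Slc25 probe sets in every comparison, with 6, 13 and 4 of 68 at an unadjusted p under 0.05 at 18 weeks, at 25 weeks and between both times, against 7.25%, 11.9% and 3.83% of all probe sets, and 0.0% of all probe sets were called. The normalization sets the balance of higher and lower members at 25 weeks. On the scale as deposited all kept probe sets shifted up by a median of 0.92, and 29 Slc25 probe sets were called higher and 0 lower, against 38.7% of all probe sets higher (10463 of 27022) and 0.0296% lower. Without the intensity trend of the variance, 5 Slc25 probe sets were called higher and 0 lower, against 5.71% and 3.14% of all probe sets. All 5 lower Slc25 calls were thus lost without it. With median centring, 11 were higher and 4 lower, against 10.3% and 3.1% of all. Every change below is therefore relative to the array as a whole.

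Slc25a4, the ADP/ATP carrier best known from heart and skeletal muscle, was the member that rose most, and it rose at both times. Probe set 1434897_a_at gave 4.16, 4.09 and 1.92 in control arrays 1 to 3, 5.43, 6.86 and 6.17 at 18 weeks, and 6.45, 6.32 and 5.69 at 25 weeks. Every deficient array lay above every control array. In the deposited intensities the same controls read 10.1, 9.92 and 0.423 and the 18-week arrays 48.9 to 100.2, so the control values were close to the floor of the array and the size of the rise is not exact. At 18 weeks the difference was 2.28 ± 0.40 (SE, n = 3 against 3; limma, adjusted p = 0.0238), and it was 2.62 with a pseudocount of 1 and 1.73 with one at the 50th percentile of the signals. At 25 weeks it was 2.77 ± 0.38 (limma, adjusted p = 0.00158), and 3.30 and 2.01 with those pseudocounts, called under each. Within the dim pair, where the control was lowest, it was 3.77, and outside the pair 2.27. The step from 18 to 25 weeks was 0.48 ± 0.40 and did not pass the test (limma, adjusted p = 0.694).

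The 25-week call for this Slc25a4 probe set held in all 9 fits that each left out 1 array, and with the dim pair left out (limma, adjusted p = 0.00301). The 18-week call was lost without control array 1 (difference 2.49, limma adjusted p = 0.0775), control array 2 (2.44, 0.0801), 18-week array 2 (1.93, 0.0939) or 18-week array 3 (2.27, 0.0905). Without the block the adjusted p values were 0.32 at 18 weeks and 0.143 at 25 weeks. The 18-week call was also lost without the variance trend (limma, adjusted p = 0.093) and with a replicate block beside the dim pair (0.154). At 25 weeks the call held in both fits (limma, adjusted p = 0.0147 and 0.00841). The summed Sertoli markers were also higher in every deficient array than in every control, as were the summed undifferentiated markers, which were mostly Id4. Their part in the result was not tested.

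The other Slc25a4 probe sets lay in the same direction. Probe set 1424562_a_at read 4.32, 3.97 and 3.54 in controls, 4.89, 6.06 and 5.02 at 18 weeks and 5.34, 5.20 and 5.26 at 25 weeks, again without overlap of either deficient group with the controls. Its difference was 1.28 ± 0.35 at 18 weeks (limma, adjusted p = 0.0964) and 1.33 ± 0.33 at 25 weeks (adjusted p = 0.0206). That 25-week call was lost with the dim pair left out (1.13, adjusted p = 0.057), and on leaving out control array 2 (1.28, 0.0617), control array 3 (1.13, 0.0585) or any of 25-week arrays 1 (1.34, 0.0663), 2 (1.42, 0.0567) and 3 (1.13, 0.0626). Probe set 1455069_x_at gave 0.85 and 0.89 at the 2 times without passing the test (limma, adjusted p = 0.247 and 0.089). The fourth, 1424563_at, was below the filter.

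Slc25a5, the X-linked ADP/ATP carrier of most dividing somatic cells, has 8 probe sets, all above the filter, and they differed widely among themselves. At 25 weeks their differences ran from 0.29 to 2.11 with a median of 0.88, and 4 were called higher. All 4 carry the suffix _x_at, which marks probes that can also bind similar sequences, so their gene assignment is uncertain. At 18 weeks the 8 differences ran from 0.31 to 1.18 with a median of 0.70, and 0 were called.

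Probe set 1438360_x_at of Slc25a5 read 3.34, 3.33 and 2.97 in controls, 3.32, 4.57 and 4.23 at 18 weeks and 5.10, 5.09 and 5.76 at 25 weeks. All 25-week arrays lay above all others, and the 18-week arrays overlapped the controls. The deposited control intensities were 4.57, 5.01 and 2.81, near the 25th percentile of all signals (3.26), so the size of the rise is not exact here either. Its 25-week difference was 2.11 ± 0.37 (limma, adjusted p = 0.00473, and 0.113 without the block), and 2.44 and 1.47 with a pseudocount of 1 and at the 50th percentile. It was 2.79 within the dim pair and 1.76 outside it. Probe set 1438922_x_at of Slc25a5 read 2.44, 3.38 and 3.82 in controls, 3.44, 4.20 and 4.28 at 18 weeks and 4.51, 4.54 and 6.12 at 25 weeks, and its 25-week difference was 1.84 ± 0.36 (limma, adjusted p = 0.00781, and 0.231 without the block), or 2.20 and 1.26 with those pseudocounts, from deposited control intensities of 1.26, 5.26 and 6.81. Its 25-week arrays too lay above all others, and its 18-week arrays overlapped the controls. Both calls held in all 9 fits that each left out 1 array. Both probe sets were too dim to pass the alternative filter at the 60th percentile, so they were not tested there.

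The other Slc25a5 probe sets were less firm or did not pass. Probe sets 1423772_x_at and 1436874_x_at rose by 1.09 ± 0.32 and 1.32 ± 0.40 at 25 weeks (limma, adjusted p = 0.0423 and 0.0481). Both lost their calls without the variance trend (adjusted p = 0.0907 and 0.103), without the filter (0.0576 and 0.0652) and with a replicate block (0.0703 and 0.0926), and the second also with a pseudocount of 1 (0.0538). With the dim pair left out neither passed, at 0.71 and 0.62 (adjusted p = 0.169 and 0.223). The first was called in 2 and the second in 1 of the 9 fits without 1 array: the first kept its call only without 18-week array 1 or 2, the second only without 18-week array 1. Their lowest 25-week differences, 0.71 and 0.62, came without the third control or the third 25-week array. The single probe set with a plain _at suffix, 1438545_at, read 4.06, 3.47 and 4.37 in controls, 3.67, 4.80 and 4.20 at 18 weeks and 3.82, 3.86 and 5.08 at 25 weeks. Its groups overlapped and its 25-week difference was 0.29 ± 0.35 (limma, adjusted p = 0.625).

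Slc25a31, the germ-cell ADP/ATP carrier, changed less and only the 25-week difference passed the test. Its single probe set, 1453133_at, read 9.64, 9.91 and 9.64 in controls, 10.08, 9.97 and 9.83 at 18 weeks and 10.48, 10.47 and 9.93 at 25 weeks. The 18-week arrays overlapped the controls, while all 25-week arrays lay above the controls, the dim one by a narrow margin over control array 2. The difference was 0.12 ± 0.14 at 18 weeks (limma, adjusted p = 0.713), a value that turned to -0.14 with median centring, and 0.57 ± 0.13 at 25 weeks, a 1.48-fold rise (limma, adjusted p = 0.0143). At 25 weeks the difference was 0.29 within the dim pair and 0.70 outside it, and adjusted p was 0.00697 with that pair left out. The step from 18 to 25 weeks was 0.45 ± 0.14 (limma, adjusted p = 0.24).

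The Slc25a31 call was lost without control array 1 (0.45, limma adjusted p = 0.0661), 25-week array 1 (0.53, 0.0632) or 25-week array 2 (0.53, 0.0664), without the block (adjusted p = 0.321) and without the intensity trend of the variance (0.0863). Its rise can be set beside the germ-line marker counts at 25 weeks: 2 of 8 spermatocyte markers were called higher and 2 lower, 0 of 8 spermatid markers higher and 1 lower (Tnp2), and 1 of 4 markers of the whole germ line higher (Tex101). Their part in the result was not tested. Slc25a31, Slc25a4 and Slc25a5 are measured by different probes, so their levels are not set against each other.

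**Figure D1:**
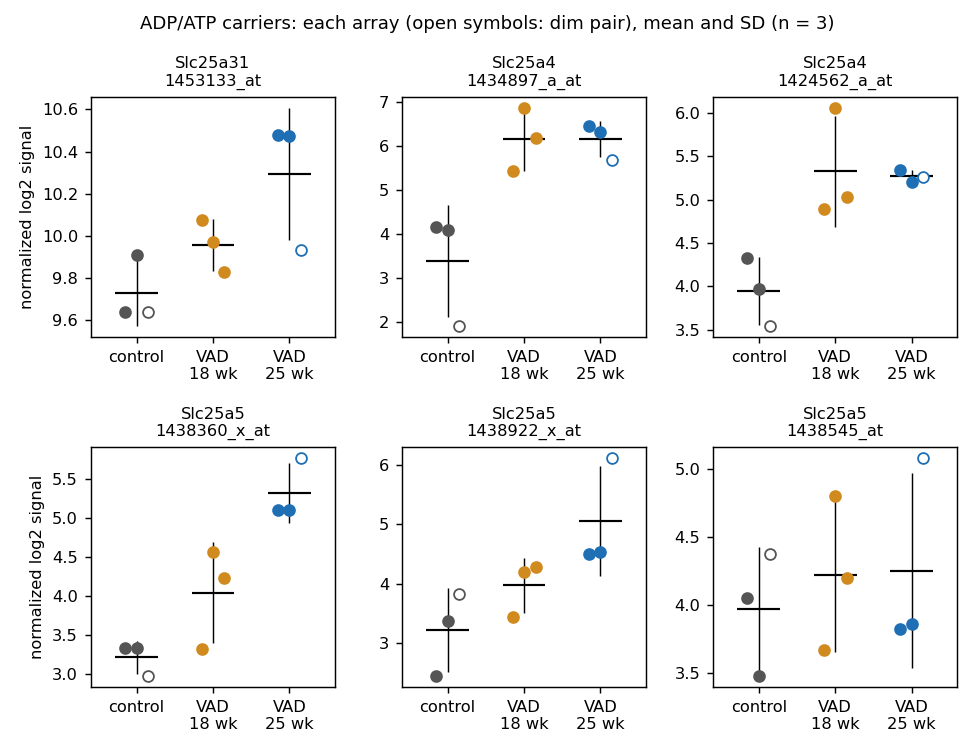
Normalized log2 signal of the ADP/ATP carriers in each array (points, open for the dim pair) with the group mean (line) and SD (bar), n = 3 per group and a separate vertical scale per probe set. For Slc25a4 every deficient array lies above every control array, for Slc25a31 all 25-week arrays do but the lowest 18-week array (9.83) does not, and Slc25a5 1438545_at overlaps throughout.

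**Figure D2:**
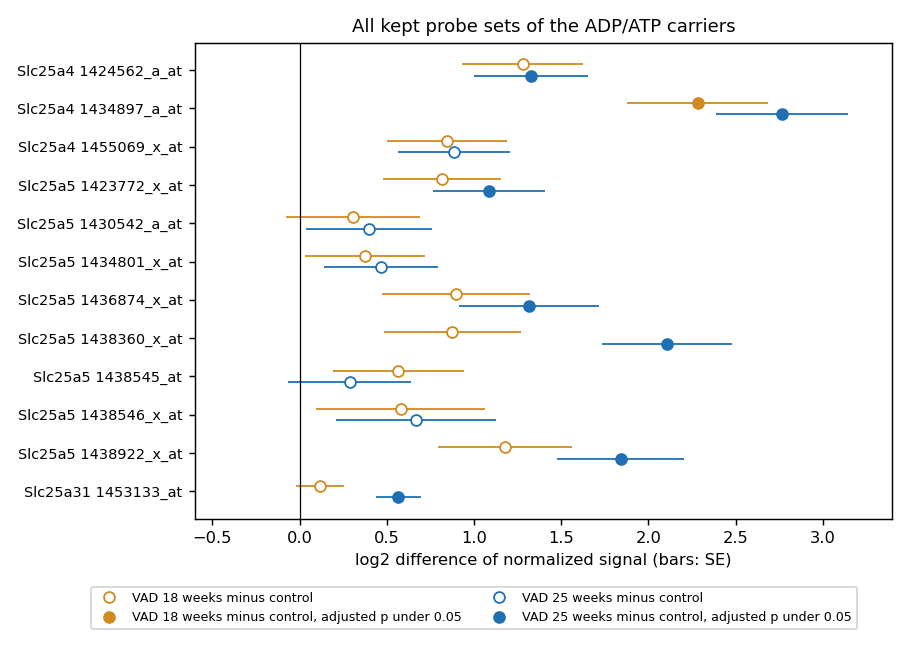
Log2 difference from control with its SE for each of the 12 kept probe sets of Slc25a4, Slc25a5 and Slc25a31 at 18 weeks (orange) and 25 weeks (blue), filled where the limma adjusted p was under 0.05. The 25-week values span 0.29 (Slc25a5 1438545_at) to 2.77 (Slc25a4 1434897_a_at), and 1 probe set is filled at 18 weeks against 7 at 25 weeks.

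The remaining carriers of adenine nucleotides and phosphate included 1 that fell. Slc25a25, a calcium-regulated ATP-Mg/phosphate carrier, read 5.95, 6.10 and 6.41 in controls, 5.75, 5.23 and 5.04 at 18 weeks and 5.04, 5.25 and 3.14 at 25 weeks on probe set 1424735_at. Neither deficient group overlapped the controls, and the dim 25-week array was far below the other 25-week arrays. The difference was -1.09 ± 0.43 at 18 weeks (limma, adjusted p = 0.241) and -1.68 ± 0.41 at 25 weeks (adjusted p = 0.0193, and 0.252 without the block). It was -3.27 within the dim pair and -0.88 outside it, the latter still called with that pair left out (limma, adjusted p = 0.0427). The call held in all 9 fits that each left out 1 array, but it was lost without the variance trend (adjusted p = 0.0567), with a replicate block beside the dim pair (0.0508) and on the deposited scale (-0.43, adjusted p = 0.417). Slc25a25 has 3 probe sets, of which 2 were kept, and only 1424735_at was called. Probe sets 1454284_at and 1447856_x_at were dim, with deposited intensities of at most 26.1 and 27.3. Slc25a3, the phosphate carrier that supplies ATP synthase, read 10.13 to 10.63 over all 9 arrays on 1416300_a_at, with a 25-week difference of 0.24 (limma, adjusted p = 0.257). Its other kept probe set, 1440302_at, was dim and was not called. Deposited intensities there were 13.7, 11.5 and 0.744 in controls and 46.2, 44.1 and 7.79 at 25 weeks, on arrays of unequal brightness. Of the 18 kept probe sets of this class, from 7 genes, 7 rose and 1 fell at 25 weeks, against 8.54% and 6.32% of all probe sets. Of the 7 that rose, 6 belong to Slc25a4 and Slc25a5 alone, so they are not 7 separate genes.

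Among the 13 kept probe sets of 8 genes for cofactors and nucleotide precursors, 1 rose and 1 fell at 25 weeks (7.69% each, against 8.54% and 6.32% of all probe sets). Slc25a33, a mitochondrial pyrimidine nucleotide carrier, read 9.51, 9.27 and 9.39 in controls, 9.06, 8.86 and 9.18 at 18 weeks and 8.83, 8.81 and 8.72 at 25 weeks on 1424211_at. The groups did not overlap, with the 25-week arrays lowest. Its 25-week difference was -0.60 ± 0.13 (limma, adjusted p = 0.011, and 0.247 without the block), similar within the dim pair (-0.67) and outside it (-0.57), but it turned to 0.33 on the deposited scale and did not pass with median centring (-0.52, adjusted p = 0.0738). The call was lost without control array 1 (-0.54, limma adjusted p = 0.0549) and without the variance trend (0.0638).

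Slc25a51, the mitochondrial NAD carrier, rose on 1 of 2 kept probe sets. Probe set 1433816_at read 4.49, 2.85 and 4.13 in controls, 5.28, 4.68 and 5.38 at 18 weeks and 5.69, 5.50 and 5.61 at 25 weeks, with all deficient arrays above all controls. The difference was 1.37 ± 0.41 at 18 weeks (limma, adjusted p = 0.125) and 1.78 ± 0.38 at 25 weeks (adjusted p = 0.0115, 0.173 without the block, and 0.0504 without 25-week array 1, at 1.68). Its controls too were dim (deposited intensities of 13.4, 2.81 and 8.63), and the 25-week difference was 2.02 and 1.31 with a pseudocount of 1 and at the 50th percentile. Its brighter probe set 1454712_at gave 0.37 at 25 weeks and did not pass (adjusted p = 0.143). Slc25a32, a folate and FAD carrier, gave 0.91 ± 0.34 on 1453149_at and 1.06 on 1435483_x_at at 25 weeks (limma, adjusted p = 0.0937 and 0.057), and the second passed with the dim pair left out (1.33, adjusted p = 0.0261).

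Of 4 kept probe sets for carboxylate carriers, 1 fell at 25 weeks, where 6.32% of all probe sets did. Slc25a10, the dicarboxylate carrier, read 7.56, 7.17 and 7.72 in controls, 7.49, 7.21 and 7.20 at 18 weeks and 6.84, 6.78 and 6.75 at 25 weeks on 1416954_at. The 25-week arrays lay below all others, and the 18-week arrays overlapped the controls. The 25-week difference was -0.69 ± 0.18 (limma, adjusted p = 0.0235, and 0.286 without the block), which turned to 0.36 on the deposited scale and did not pass with median centring (-0.48, adjusted p = 0.15) or with the dim pair left out (-0.55, 0.0698). It was also lost without control array 1 (-0.62, 0.0948), control array 3 (-0.55, 0.0724), or any of 25-week arrays 1 (-0.75, 0.0591), 2 (-0.71, 0.0722) and 3 (-0.55, 0.0691), and without the variance trend (0.0637). The second probe set, 1416955_at, gave -0.59 (adjusted p = 0.186). Slc25a1, the citrate carrier, gave 0.47 ± 0.16 at 18 weeks and 0.30 ± 0.15 at 25 weeks (limma, adjusted p = 0.177 and 0.221).

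Among carriers of iron and glutathione, Slc25a39, the mitochondrial glutathione carrier, fell on 2 of its 4 kept probe sets at 25 weeks, where 6.32% of all probe sets fell. Both carry the suffix _x_at, so their gene assignment is uncertain, as for Slc25a5. Probe set 1447783_x_at read 10.45, 10.41 and 8.57 in controls, 10.41, 10.46 and 10.05 at 18 weeks and 9.64, 9.63 and 8.18 at 25 weeks. Probe set 1456176_x_at read 12.16, 12.00 and 11.35, then 11.88, 11.97 and 11.79, then 11.39, 11.38 and 11.15. On both the dim control lay below 25-week arrays 1 and 2, so the groups overlapped, while each 25-week array lay below the controls of its own brightness.

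The Slc25a39 differences on 1447783_x_at and 1456176_x_at were -0.66 ± 0.14 and -0.53 ± 0.11 (limma, adjusted p = 0.00997 and 0.0112, and 0.714 and 0.384 without the block), and both turned positive on the deposited scale, to 0.26 and 0.22. Within the dim pair they were -0.39 and -0.20, and outside it -0.79 and -0.70. With the dim pair left out both were also lower at 25 than at 18 weeks (limma, adjusted p = 0.0391 and 0.0428), as were 1.05% of all probe sets. Without the variance trend neither passed (limma, adjusted p = 0.0642 and 0.0967). The first call was also lost without 25-week array 2 (-0.62, adjusted p = 0.0502). The second was also lost without control array 1 (-0.44, 0.0553), 25-week array 1 (-0.49, 0.0505) or 25-week array 2 (-0.48, 0.0567). The remaining kept Slc25a39 probe sets, 1439410_x_at and 1453111_a_at, gave -0.29 ± 0.11 and -1.28 ± 0.43 without passing (adjusted p = 0.0993 and 0.066).

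**Figure D3:**
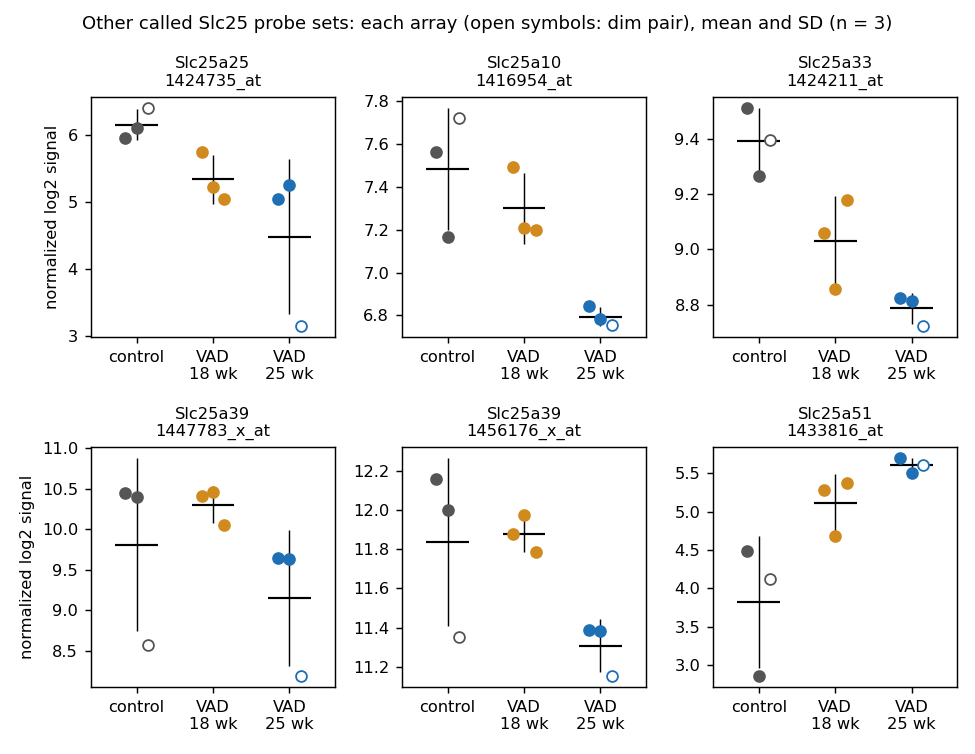
Normalized log2 signal of the other Slc25 probe sets called at 25 weeks in each array (points, open for the dim pair), with mean and SD, n = 3 per group. Slc25a10, Slc25a33 and Slc25a25 have their 25-week arrays below all controls, Slc25a51 has them above, and both Slc25a39 probe sets overlap through the dim control. On the deposited scale Slc25a10, Slc25a33 and Slc25a39 lie in the opposite direction.

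No probe set passed in the remaining classes at any time. These were 14 kept probe sets for amino acids and acylcarnitine, 5 for uncoupling protein relatives and 8 for carriers of other or unsettled substrates. In each, the gene whose representative probe set had the smallest p is given. Slc25a2, an ornithine carrier, read 8.86, 8.82 and 8.84 in controls, 8.52, 8.57 and 8.92 at 18 weeks and 8.44, 8.02 and 8.89 at 25 weeks. The dim 25-week array lay above the controls and the other 25-week arrays below them. Its 25-week difference was -0.39 ± 0.18 (limma, adjusted p = 0.166), and it passed with the dim pair left out (-0.61, adjusted p = 0.0435). At 18 weeks the smallest p of this class was that of Slc25a22, a glutamate carrier (-0.57 ± 0.46, adjusted p = 0.577).

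Slc25a30, the kidney uncoupling relative, read 6.52, 6.63 and 5.66 in controls, 5.97, 5.65 and 6.20 at 18 weeks and 6.32, 6.46 and 4.76 at 25 weeks. The 18-week arrays lay below the controls of their own brightness, and the dim arrays were the lowest in the control and 25-week groups. Its difference was -0.75 ± 0.24 at 18 weeks and -0.43 ± 0.22 at 25 weeks (limma, adjusted p = 0.142 and 0.224). Slc25a14, an uncoupling relative known from brain, led this class between 25 and 18 weeks (-1.11 ± 0.44, adjusted p = 0.357). Slc25a45, without a settled substrate here, read 3.38, 4.94 and 2.53 in controls, 4.27, 5.31 and 5.36 at 18 weeks and 4.52, 4.88 and 6.61 at 25 weeks. All groups overlapped, and the dim 25-week array was highest. Its 25-week difference was 1.72 ± 0.64 (limma, adjusted p = 0.0946), with 4.08 within the dim pair and 0.54 outside it. Slc25a54 led that class at 18 weeks (-0.39 ± 0.18, adjusted p = 0.297). Over all kept probe sets rather than representatives, the smallest adjusted p at 25 weeks was 0.0852 in the class of other substrates (Slc25a46 1448970_at, -0.53 ± 0.19) and 0.102 in the amino acid class (Slc25a29 1423979_a_at, -0.93 ± 0.35).

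**Figure D4:**
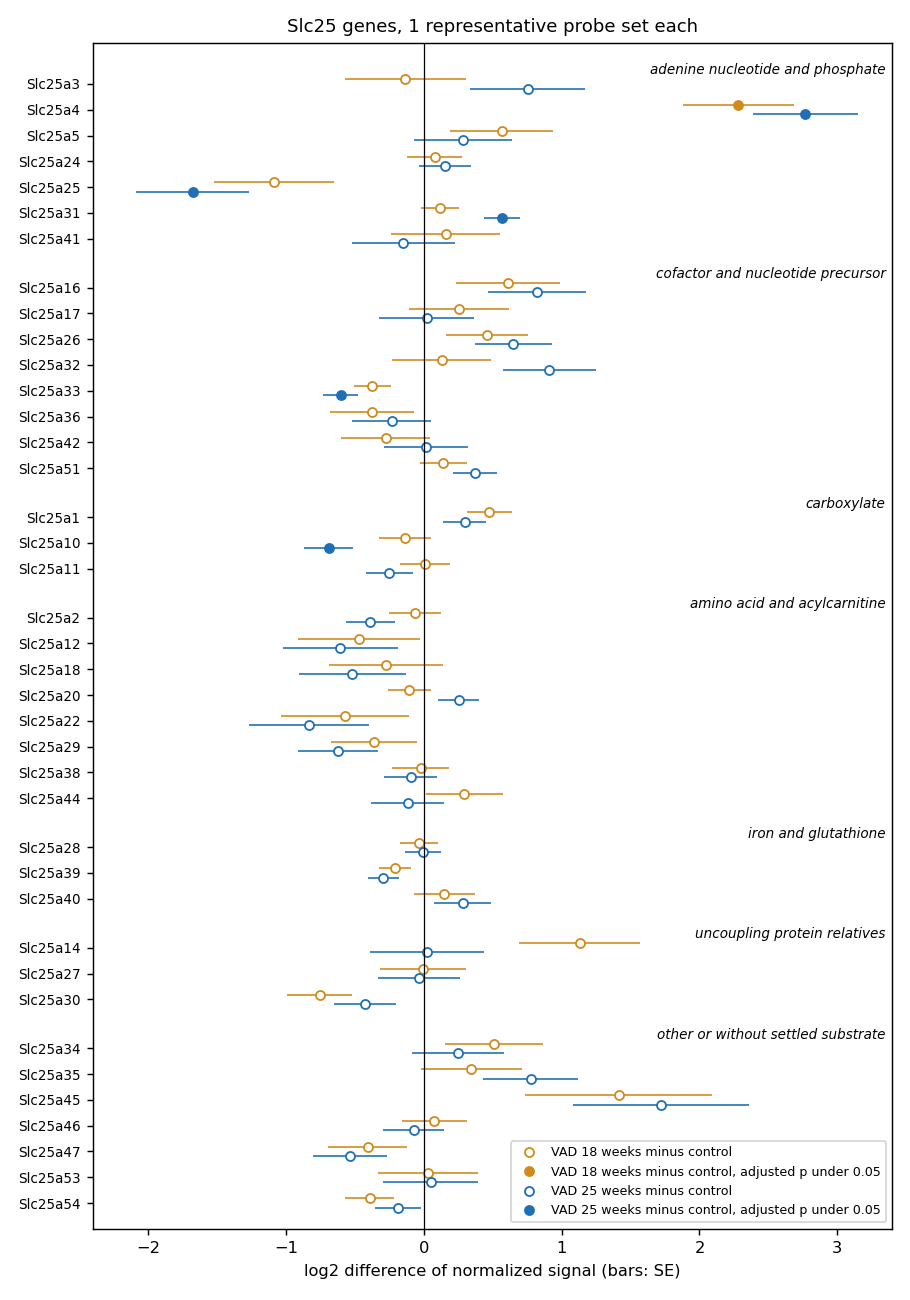
Log2 difference from control with its SE for the representative probe set of each of the 39 Slc25 genes, ordered by transported substrate, at 18 weeks (orange) and 25 weeks (blue), filled where the limma adjusted p was under 0.05. Slc25a4 is filled at both times, and Slc25a25, Slc25a31, Slc25a33 and Slc25a10 at 25 weeks, the last 2 of which turn positive on the deposited scale.

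Counted by gene, 8 of 39 Slc25 genes had a called probe set at 25 weeks, 4 higher (Slc25a4, Slc25a5, Slc25a31, Slc25a51) and 4 lower (Slc25a10, Slc25a25, Slc25a33, Slc25a39), of which Slc25a25 alone stayed negative on the deposited scale. That is 20.5% of the genes, against 22.9% of all 13616 named genes with any kept probe set called (13.1% higher, 10.4% lower). With 1 representative probe set per gene, 5 of 39 (12.8%) were called, against 16.6% of all 13616 named genes, and 1 of 39 was called at 18 weeks, against 1.51%. Both shares of Slc25 genes lie near the background. Values of the 3 arrays of a group did not overlap with the controls for 12 of the 68 probe sets at 18 weeks (17.6%, against 19.4% of all) and for 17 at 25 weeks (25.0%, against 16.2%).

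All 13 Slc25 probe sets called at 25 weeks had the same sign within the dim pair and outside it, which is a description, since both differences enter the contrast that made the calls. Of the 55 kept probe sets that were not called, 33 had the same sign in both. With the dim pair left out 13 Slc25 probe sets were called, 6 higher and 7 lower, against 15.6% of all probe sets called, 8.9% higher and 6.74% lower, and 9 of these were also called with the pair included.

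**Figure D5:**
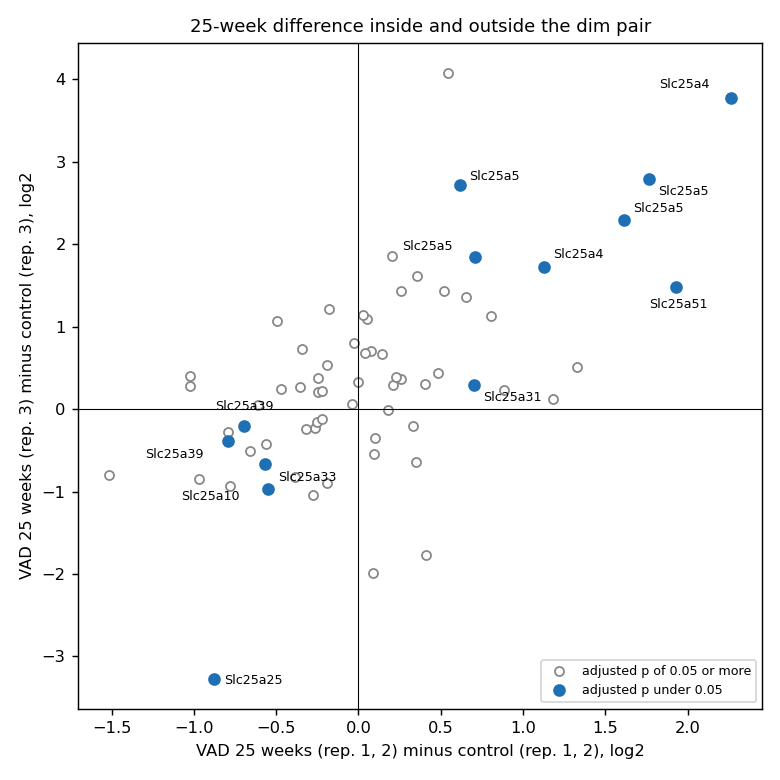
Each point is 1 of the 68 kept Slc25 probe sets, with its log2 difference between 25 weeks and control outside the dim pair (horizontal, means of arrays 1 and 2) and within the dim pair (vertical, array 3 against array 3), filled where called. The 13 filled points lie in the upper right or lower left, with Slc25a4 at 2.27 and 3.77 and Slc25a25 at -0.88 and -3.27.

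Other genes of mitochondrial membrane transport, from a list of 38 of which 33 were on the array and 30 passed the filter, were counted in the same fit. At 18 weeks limma called 0 of the 30, and at 25 weeks 2 rose and 2 fell, with a median difference of -0.06. The 4 calls among 30 genes stand against 16.6% of all named genes, so the list was not called more often than the array. Mtch2, a carrier relative in the outer membrane, rose by 0.43 ± 0.13 (limma, adjusted p = 0.0452), and Abcb10, an inner membrane ABC transporter, by 1.50 ± 0.35 (adjusted p = 0.0151). Tomm22, a receptor of the outer membrane import complex, fell by 1.03 ± 0.18 and Timm10, a chaperone that escorts carriers to the inner membrane, by 0.85 ± 0.15 (adjusted p = 0.00463 and 0.00468), values that were -0.02 and 0.12 on the deposited scale. The outer membrane channels, the pyruvate and calcium uptake genes and the mitochondrial creatine kinases had no call at either time.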

How the data were processed

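The study measured RNA of mouse spermatogonia on 9 Affymetrix arrays, 3 for each of 3 groups taken from the sample titles. The values are intensities per probe set that the authors deposited as made with MAS5, per the submitters' processing notes (version not given). The array scaling is not given in the sources used here. Arrays have no counting depth, and precision is limited by how many there are.

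From these, log2(signal + 3.26) was computed, the pseudocount being the 25th percentile of all signals, the 64 control probe sets were removed and the arrays were quantile normalized. The filter kept the 27022 probe sets with a mean no lower than the 40th percentile. Fold changes on this scale understate the change of dim probe sets. limma 3.58.1 (R 4.3.3) was fitted to all kept probe sets with group and the dim pair as terms (5 residual degrees of freedom), an intensity trend of the variance and Benjamini-Hochberg adjustment over all of them. A call means an adjusted p under 0.05. An array was dim where its trimmed mean was under 0.5 of the median array. The fit was also run on data simulated from the same model, with an equal dim offset in the control and 25-week groups. That run cannot show whether the offset is equal in these data.

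Symbols came from the platform annotation, and probe sets with several symbols were not used. All Slc25 genes could be named. Full values were given for Slc25a4, Slc25a5, Slc25a31 and the called genes, and, in classes without a call, for the gene whose representative probe set had the smallest p. A gene's representative is its brightest kept probe set, with suffixes _x_at, _s_at and _a_at used last. Slc25a32 1435483_x_at and second probe sets were named after their values were seen. The members, the gene lists and the dim pair block were chosen with earlier results of these data known. Alternatives covered the block, scaling, pseudocount, filter, variance trend, array weights, replicate block and each array left out.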

Additional observations from a re-analysis of the deposited data

Results flagged for a closer look

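Slc25a20, the carnitine/acylcarnitine carrier, drew attention on probe set 1423108_at because its deficient groups lay on opposite sides of their controls. Each 18-week array lay 0.16 to 0.25 below the mean of the non-dim controls (differences of -0.25 to -0.16), while each 25-week array lay 0.04 to 0.68 above the control mean of its own brightness. The difference between 25 and 18 weeks was 0.36 ± 0.16 and did not pass the test (limma, adjusted p = 0.421). The second probe set, 1423109_s_at, gave 0.09 ± 0.16 (adjusted p = 0.878).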

How the results depend on the processing

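The 18-week count of 1 Slc25 probe set became 0 without the dim pair block, without the variance trend, with the replicate block with or without the dim pair block, and without the block on the deposited scale, and 2 with array weights. It ranged from 0 to 1 over the fits without 1 array (0 without control array 1 or 2 or 18-week array 2 or 3). The 25-week count of 13 became 0 without the dim pair block, also with the replicate block in its place or on the deposited scale. On the deposited scale with the block it became 29, where 38.7% of all probe sets were called. Without the variance trend the 25-week count became 5 (5 higher, 0 lower), where 8.85% of all probe sets were called. It ranged from 6 to 14 without 1 array (7 without control array 1, 6 without 25-week array 1 or 2). The count between 25 and 18 weeks was 0. With the dim pair left out it was 2, where 1.68% of all probe sets were called, and on the deposited scale 4, where 6.6% were. With array weights the count between both times was 4, and it ranged from 0 to 2 without 1 array (2 without control array 3 or 25-week array 3). Counting any probe set of a gene gave 8 genes at 25 weeks in place of 5. On the deposited scale, with or without the block, the 25-week differences reversed to 0.36 (Slc25a10), 0.33 (Slc25a33), 0.26 and 0.22 (Slc25a39). Same-numbered control and 25-week arrays 1 and 2 correlated at 0.52 in their deviations, and the crossed numbers at 0.54 and 0.53. The dim pair, which shares the number 3, correlated at 0.69. These values cannot decide whether the replicate numbers pair the arrays, because the dim array shifts the mean of each of these groups. With the replicate block beside the dim pair block 11 probe sets were called at 25 weeks. The deposited scale without the block was added after the data were seen. Other pseudocounts and filters left the counts within 1.5 times. The limits are 3 arrays a group, a dim pair without an 18-week member, and control signals near the floor for Slc25a4.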

Other observations

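The gap between the dim arrays and the other control and 25-week arrays differed between probe sets, in several cases between probe sets of 1 gene. Over the 68 kept Slc25 probe sets the offset (dim minus other arrays) had a median of 0.01 and ran from -2.37 to 3.98, with 15 probe sets below -1 and 10 above 1. Slc25a29, a basic amino acid carrier, held the highest value on 1423979_a_at, which read 7.80 in the dim control and 6.95 in the dim 25-week array against 2.42 to 4.21 in the other 7 arrays. Its probe set 1438187_at had an offset of -0.63. For Slc25a46, a protein of mitochondrial shape, the offset was 1.77 on 1418134_at and -0.23 on 1448970_at. Slc25a20 had -1.85 on 1423108_at and -0.17 on 1423109_s_at. Both kept probe sets of Slc25a44, a branched-chain amino acid carrier, were low in the dim arrays, at -2.26 and -2.12.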
